A study of Mus musculus with 4 samples.

Results

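The genes described here carry Zfp symbols, the mouse prefix for zinc finger proteins, and were expressed in mammary tumours that differed in the gene Nr1d1. Members were the symbols made of Zfp, a number and at most 1 further letter whose mean over the 4 libraries was at least 5 CPM, the gene's count per 1000000 counts of the library. Zfp457 was to be shown whatever its mean, and it also reached that level. Of 360 such symbols among 23282 rows of the count files, 215 were members. Apart from Zfp457, which was named for its values, the rule used the mean level over all libraries.

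Most of these genes encode proteins with C2H2 zinc fingers, short loops held by a zinc ion between a pair of cysteines and a pair of histidines. A tandem row of fingers reads a stretch of DNA, and in some proteins the fingers bind RNA or other proteins instead. Many of the genes also encode a KRAB domain, which recruits the co-repressor TRIM28 (KAP1) and, through it, enzymes that lay down repressive histone marks, above all over transposable elements. KRAB zinc finger genes arose by repeated tandem duplication and stand in clusters of close relatives.

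RNA sequencing measured transcripts in mammary gland tumours of female FVB mice at 14 weeks of age. All mice carried PyMT, the polyoma virus middle T antigen, an oncogene that gives rise to mammary carcinoma; the labels do not name the promoter that drives it. There were 2 samples of genotype Nr1d1+/+;PyMT and 2 of genotype Nr1d1-/-;PyMT, and the comparison asks which transcripts differ with Nr1d1, which encodes REV-ERBα, a haem-binding nuclear receptor that acts as a transcriptional repressor in the circadian clock. Nothing in the labels ties the replicates to separate animals, so p-values reflect the spread among these 4 samples alone, and that spread may be technical.

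Total counts ran from 15905404 to 19116279. Nr1d1 was at 20.1 and 10.3 CPM in Nr1d1+/+ replicates 1 and 2 and at 10.6 and 12.8 CPM in Nr1d1-/- replicates 1 and 2, so the libraries overlapped and this transcript did not tell the genotypes apart (log2 fold -0.37, SE 0.35, edgeR adjusted p = 0.436; 0.14 without Nr1d1+/+ replicate 1). Which exons are missing from the null allele is not stated in the labels, and every direction below rests on the labels. Here and below, levels by library are CPM after TMM normalisation, given in the order Nr1d1+/+ replicate 1, Nr1d1+/+ replicate 2, Nr1d1-/- replicate 1, Nr1d1-/- replicate 2. Each log2 fold is Nr1d1-/- over Nr1d1+/+ from edgeR's quasi-likelihood test, and a gene was called where its p, adjusted over 14801 tested genes by the Benjamini-Hochberg method, was under 0.05. Of the luminal epithelium markers, Krt8, Krt18 and Krt19 were called higher and Cdh1 lower in Nr1d1-/-. The summed CPM of 5 skeletal muscle markers was 2.22, 1.29, 514 and 2.91, so that Nr1d1-/- replicate 1 stood apart. That of 5 red blood cell markers was 452, 580, 2014 and 2192, higher in both Nr1d1-/- libraries. The ribosomal RNA precursor Rn45s took 2.94%, 3.39%, 4.36% and 7.64% of the counts in the same order, also more in both Nr1d1-/- libraries.

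The Zfp genes were transcripts of low to middle abundance. Per kilobase of merged exons, their mean level over the 4 libraries, before TMM scaling, had a median of 2.997 CPM per kb, with quartiles of 1.90 and 5.92 and a range from 0.652 to 82.7, and 35 of them reached 10. All members together took 0.498% and 0.522% of the counts of Nr1d1+/+ replicates 1 and 2 and 0.425% and 0.386% of those of Nr1d1-/- replicates 1 and 2. A KRAB A-box pattern was found in the translated coding sequences of 99 members and not in those of 116. Median levels were 2.27 CPM per kb with the KRAB pattern and 4.31 without it.

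The 6 highest levels per kb belonged to genes without the KRAB pattern. Zfp395, whose human counterpart has been linked to the response to hypoxia, stood first at 71.1, 51.8, 106 and 112 CPM per kb in the 4 libraries. Both Nr1d1-/- libraries lay above both Nr1d1+/+ libraries (log2 fold 0.83, SE 0.20, edgeR adjusted p = 0.0146). Without Nr1d1+/+ replicate 2 it was 0.59 and did not pass (edgeR adjusted p = 0.110). Zfp414, Zfp330, Zfp706, Zfp839 and Zfp488 followed at means of 33.2, 29.1, 27.2, 23.8 and 22.6 CPM per kb. Zfp414 was called higher (log2 fold 0.74), but 43.9% of its 50-base words also occur in the overlapping gene Gm20507, and its log2 fold was 0.02 (edgeR adjusted p = 0.965) once trends of counts with GC content and transcript length were removed. The call of Zfp414 was also lost without Nr1d1+/+ replicate 2 (edgeR adjusted p = 0.240) and without Nr1d1-/- replicate 1 (0.0810). Zfp839 was called higher as well (log2 fold 0.87, edgeR adjusted p = 0.0134), though not when Nr1d1+/+ replicate 1, Nr1d1+/+ replicate 2 or Nr1d1-/- replicate 1 was left out (edgeR adjusted p = 0.0555, 0.0602 and 0.0601). Zfp330 and Zfp706 were not called, at log2 folds of -0.29 and 0.23.

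Between the genotypes, more Zfp genes were lower than higher in the tumours labelled Nr1d1-/-. Of the 215 members, all of which were tested, edgeR called 25 higher, or 11.6% against 16.5% of all tested genes, and 53 lower, or 24.7% against 17.3%. The remaining 137 did not pass. The median log2 fold was -0.36 over the members and -0.01 over all tested genes, and it ranged from -2.41 for Zfp280c to 3.87 for Zfp457. In 51 members both Nr1d1-/- libraries lay above both Nr1d1+/+ libraries (23.7%, against 34.4% of all tested genes), in 112 both lay below (52.1%, against 36.2%), and in 52 the genotypes overlapped. The 5 CPM limit bears on these counts: in CPM over total counts, 44 members reached it in the Nr1d1+/+ mean and not in the Nr1d1-/- mean, 20 of them called lower, and 4 reached it in the Nr1d1-/- mean only, 1 of them, Zfp457, called higher. A gene that entered through 1 genotype had to be higher there, so the calls of such genes do not count in support of a difference. The limit also bears on the background, because all tested genes include many of lower level. A fit restricted to the 10859 genes averaging 5 CPM or more called 24.7% of members lower, against 21.2% of those genes. It called 12.6% of members higher, against 21.6%. The excess of lower members was thus smaller against genes at or above the same limit, and the shortage of higher members larger. Those genes were not matched to the members in level. Medians by library were 27.4, 27.4, 25.2 and 24.8 CPM over 10852 tested genes of at least 5 CPM. Over the members they were 12.8, 13.6, 11.4 and 9.49 CPM. The 2 libraries of a genotype differed by a median of 0.24 log2 units over the members in Nr1d1+/+ and 0.33 in Nr1d1-/-.

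The size of this shift depended on the scaling. Scaled by library size alone, the median of all tested genes moved to -0.38 and that of the members to -0.74, with 14 members higher and 98 lower (6.51% and 45.6%, against 8.65% and 29.8% of all tested genes). With the GC and length trends removed, 22 members were called higher (10.2%, against 11% of all tested genes) and 28 lower (13.02%, against 11.2%), the member median was -0.18 and that of all tested genes -0.06. The calls held in both fits for 18 of the 25 higher and 25 of the 53 lower members. Without Nr1d1+/+ replicate 2, 10 members were called higher (4.65%, against 6.75% of all tested genes) and 18 lower (8.37%, against 7.62%), so the share of lower members was then near that of all genes.

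**Figure D1:**
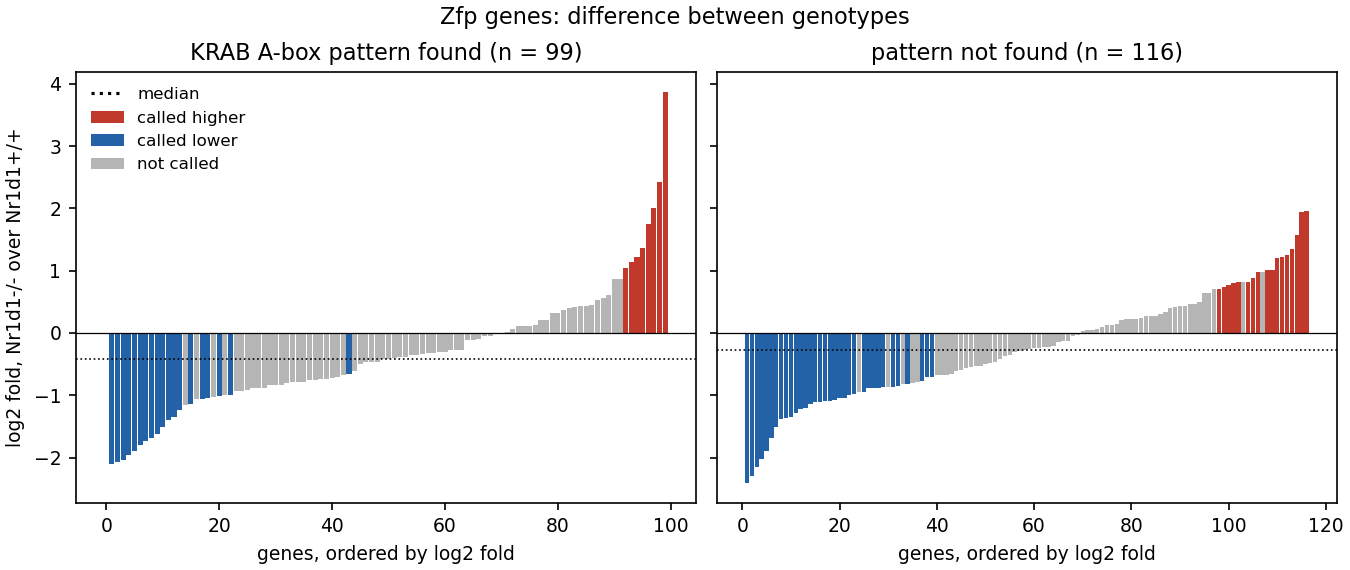
Log2 fold of each Zfp gene (Nr1d1-/- over Nr1d1+/+, vertical axis), ordered from lowest to highest, for 99 genes with the KRAB pattern (left) and 116 without (right); red and blue bars were called higher and lower by edgeR, and the dotted line is the median. Blue bars outnumber red ones in both panels (19 to 8 and 34 to 17), and the tallest bar is Zfp457 at 3.87.

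Zfp457 showed the widest difference of any member. It encodes a KRAB protein in which 16 finger patterns were found over 647 residues, and its position is chr13:67288138-67306485, minus strand (GRCm38). Its transcript was at 0.662 and 1.91 CPM in Nr1d1+/+ replicates 1 and 2, from 14 and 40 counts. In Nr1d1-/- replicates 1 and 2 it was at 25.3 and 12.6 CPM, from 346 and 204 counts. Both Nr1d1-/- libraries thus stood well above both Nr1d1+/+ libraries, and the replicates within each genotype also differed from each other. The log2 fold was 3.87. Leaving out Nr1d1+/+ replicate 1 gave 3.25, leaving out Nr1d1+/+ replicate 2 gave 4.79, and it was 4.13 with GC and length trends removed. Because this gene was chosen for its values, they are given as a description, with no test.

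No neighbour showed a difference of that size. Within 3 Mb, 24 Zfp symbols, all with the KRAB pattern, span chromosome 13 from 65278814 to 67827002, a stretch that holds the regulator of sex-limitation genes; KRAB proteins from it are known in mice to repress male-biased liver genes. Of the 23 other symbols, 1 was called higher (Zfp874b) and 2 were called lower (Zfp729b and Zfp738, the latter below the 5 CPM level). The other 20 did not pass, and the median log2 fold of the 23 was -0.79. Over all 563 tested genes of chromosome 13, 11.9% were called higher and 20.8% lower, with a median of -0.15. Most of the 23 lie under 40% GC, where the median of all tested genes was -0.55. The genes on either side of Zfp457 were near the detection limit. Zfp458 was at 0.615 and 1.005 CPM in Nr1d1+/+ and at 0 and 0.558 CPM in Nr1d1-/-. Zfp595 was at 1.51 and 1.44 CPM in Nr1d1+/+ and at 0 and 1.05 CPM in Nr1d1-/-. Neither of them was higher where Zfp457 was high. Of the 50-base words in Zfp457 transcripts, 12.4% occur in another gene and 7.93% in Zfp458, so reads from close relatives could have been assigned to either.

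Zfp874b was at 6.95 and 6.41 CPM in Nr1d1+/+ and at 16.6 and 11.2 CPM in Nr1d1-/- (log2 fold 1.05, SE 0.31, edgeR adjusted p = 0.0326). Its call was lost when Nr1d1+/+ replicate 1, Nr1d1+/+ replicate 2 or Nr1d1-/- replicate 1 was left out (edgeR adjusted p = 0.115, 0.162 and 0.150). Zfp729b was at 10.2 and 12.9 CPM in Nr1d1+/+ and at 5.71 and 5.39 CPM in Nr1d1-/- (log2 fold -1.05, SE 0.32, edgeR adjusted p = 0.0322). With GC and length trends removed, its log2 fold was -0.45 (edgeR adjusted p = 0.306). Zfp729b reached the 5 CPM limit through Nr1d1+/+ alone, so its call does not count in support of a difference. That call was lost when any of the 4 libraries was left out, with edgeR adjusted p from 0.0594 to 0.205.

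**Figure D2:**
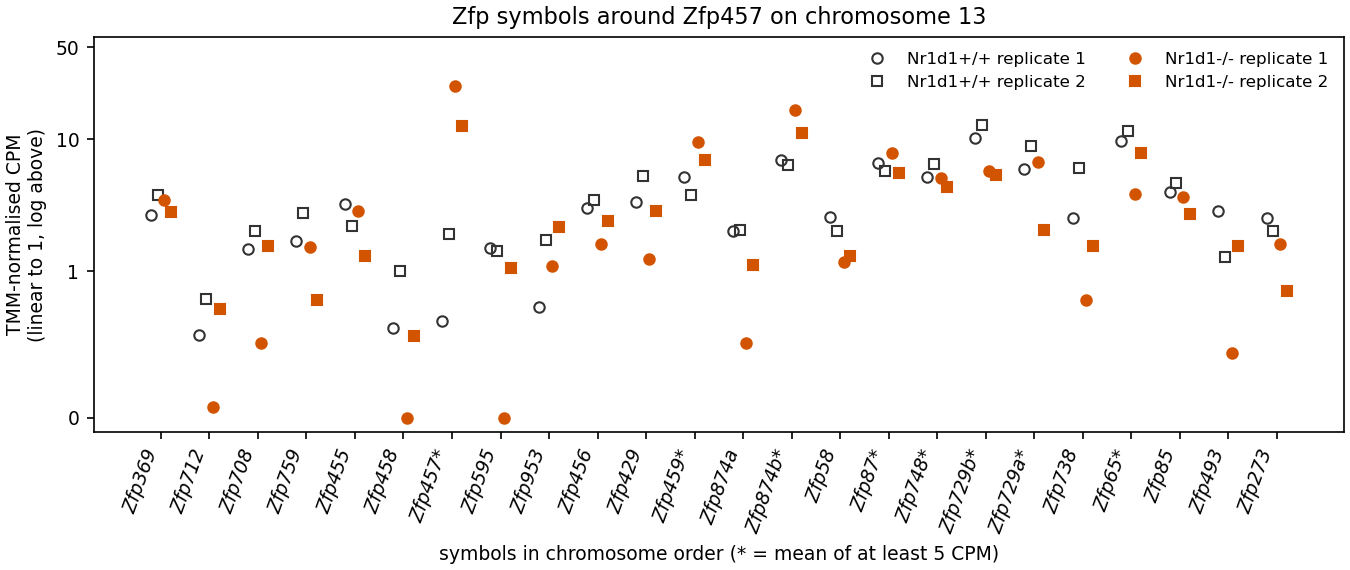
Normalised CPM (vertical axis, linear up to 1 and logarithmic above) of the 24 Zfp symbols around Zfp457, in chromosome order, in each of the 4 libraries; stars mark the members. Filled Nr1d1-/- points stand far above open Nr1d1+/+ points at Zfp457, while Zfp458 and Zfp595 beside it lie at 1.51 CPM or lower in every library.

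After Zfp457, the member with the largest called rise was Zfp811, a KRAB gene at chr17:32795676-32809931, minus strand. It was at 8.75 and 8.85 CPM in Nr1d1+/+ replicates 1 and 2 and at 55.2 and 39.7 CPM in Nr1d1-/- replicates 1 and 2 (log2 fold 2.43, SE 0.25, edgeR adjusted p = 0.00138). The Nr1d1+/+ libraries were nearly equal and both lay far below the Nr1d1-/- libraries. Zfp113, the KRAB gene with the highest level per kb, was at 59.5 and 32.6 CPM in Nr1d1+/+ and at 240.3 and 129.5 CPM in Nr1d1-/- (log2 fold 2.005, SE 0.35, edgeR adjusted p = 0.00447). In it the replicates of each genotype stood far apart, but the genotypes did not overlap.

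Zfp488, a transcriptional regulator known in the mouse for promoting oligodendrocyte differentiation, was at 38.8 and 46.8 CPM in Nr1d1+/+ and at 181 and 152 CPM in Nr1d1-/- (log2 fold 1.96, SE 0.20, edgeR adjusted p = 0.00132). Zfp329 was at 19.9 and 13.2 CPM in Nr1d1+/+ and at 73.2 and 54.7 CPM in Nr1d1-/- (log2 fold 1.95, SE 0.26, edgeR adjusted p = 0.00236). Zfp248 was at 18.1 and 19.9 CPM in Nr1d1+/+ and at 80.7 and 47.2 CPM in Nr1d1-/- (log2 fold 1.75, SE 0.27, edgeR adjusted p = 0.00335). In all of these the lower Nr1d1-/- library was above the higher Nr1d1+/+ library, as the choice of genes required. Zfp281, a regulator that binds GC-rich DNA and restrains Nanog in mouse embryonic stem cells, was at 47.1 and 47.0 CPM in Nr1d1+/+ and at 134 and 105 CPM in Nr1d1-/- (log2 fold 1.35, SE 0.19, edgeR adjusted p = 0.00275). Zfp281 stood higher still, at a log2 fold of 1.84, with GC and length trends removed.

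The other rises among the 10 largest carry a limit each. Zfp937 was at 27.1 and 25.3 CPM in Nr1d1+/+ and at 71.3 and 63.3 CPM in Nr1d1-/- (log2 fold 1.36, edgeR adjusted p = 0.00273), and 30.9% of its 50-base words occur in Zfp442. Zfp771 was at 11.6 and 11.1 CPM in Nr1d1+/+ and at 34.6 and 32.9 CPM in Nr1d1-/- (log2 fold 1.57, edgeR adjusted p = 0.00274). The transcript of Zfp771 is 68.7% G and C, and its log2 fold was 0.43 (edgeR adjusted p = 0.197) with the trends removed. Zfp524, whose human counterpart binds telomeres, was at 10.5 and 8.56 CPM in Nr1d1+/+ and at 26.4 and 19.4 CPM in Nr1d1-/- (log2 fold 1.26, edgeR adjusted p = 0.0102). For Zfp524, 46.0% of the 50-base words occur in the overlapping gene Gm44973, the log2 fold with the trends removed was 0.54 (edgeR adjusted p = 0.174), and without Nr1d1+/+ replicate 2 its edgeR adjusted p was 0.0729.

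The lowest log2 folds among the members were those of the relatives Zfp280c and Zfp280d. Zfp280c, on the X chromosome, was at 6.85 and 9.14 CPM in Nr1d1+/+ replicates 1 and 2 and at 0.733 and 2.17 CPM in Nr1d1-/- replicates 1 and 2 (log2 fold -2.41, SE 0.50, edgeR adjusted p = 0.00824). Zfp280d, at chr9:72274860-72363777, plus strand, was at 20.5 and 27.6 CPM in Nr1d1+/+ and at 4.54 and 5.21 CPM in Nr1d1-/- (log2 fold -2.30, SE 0.30, edgeR adjusted p = 0.00223). Zfp280c, Zfp280d and Zfp608, given below, reached the 5 CPM limit through Nr1d1+/+ alone, so their places are a description. Their means over total counts were 9.17, 27.6 and 22.4 CPM in Nr1d1+/+ and 1.29, 4.28 and 3.90 CPM in Nr1d1-/-. Zfp961, at a log2 fold of -2.31, fell just short of that limit. Both Zfp280 genes were lower in each Nr1d1-/- library than in either Nr1d1+/+ library, as the choice of genes required. No 50-base word of either Zfp280 gene occurs in another gene, though Zfp280d overlaps BC065403 on the opposite strand. Zfp608, on chromosome 18, was at 24.2 and 15.4 CPM in Nr1d1+/+ and at 3.66 and 5.21 CPM in Nr1d1-/- (log2 fold -2.15, SE 0.35, edgeR adjusted p = 0.00374).

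Zfp445, a KRAB protein that maintains the methylation of imprinted genes, was at 27.3 and 37.1 CPM in Nr1d1+/+ and at 6.23 and 9.30 CPM in Nr1d1-/- (log2 fold -2.04, SE 0.30, edgeR adjusted p = 0.00278). Zfp62, in which 25 fingers were found, was at 20.8 and 23.7 CPM in Nr1d1+/+ and at 5.93 and 5.02 CPM in Nr1d1-/- (log2 fold -2.03, SE 0.28, edgeR adjusted p = 0.00248). Zfp146, a protein made almost wholly of fingers, was at 27.4 and 26.9 CPM in Nr1d1+/+ and at 8.57 and 6.14 CPM in Nr1d1-/- (log2 fold -1.89, SE 0.27, edgeR adjusted p = 0.00274). In each of these genes both Nr1d1-/- libraries lay below either Nr1d1+/+ library, as the choice of genes required. Zfp62 reached the 5 CPM limit through Nr1d1+/+ alone, so its call does not count in support of a difference. Its means over total counts were 25.5 CPM in Nr1d1+/+ and 4.79 CPM in Nr1d1-/-. Zfp146 was at -1.92 with the trends removed, against -1.52 for Zfp445 and -1.49 for Zfp62.

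Of the other falls among the 10 largest, Zfp758 and Zfp943 are KRAB genes of chromosome 17, and 2.19% of the 50-base words of Zfp758 occur in Zfp943. Zfp758 was at 8.89 and 10.8 CPM in Nr1d1+/+ and at 1.32 and 3.16 CPM in Nr1d1-/- (log2 fold -2.10, edgeR adjusted p = 0.00848). Zfp943 was at 11.2 and 13.5 CPM in Nr1d1+/+ and at 1.83 and 3.97 CPM in Nr1d1-/- (log2 fold -2.06, edgeR adjusted p = 0.00672). Both reached the 5 CPM limit through Nr1d1+/+ alone, as did Zfp60 and Zfp599 below, so these calls do not count in support of a difference. In both, as in Zfp280c, Nr1d1-/- replicate 1 was the lowest library, and without Nr1d1-/- replicate 2 the log2 folds of Zfp280c, Zfp758 and Zfp943 were -3.45, -2.91 and -2.77. Zfp60 was at 17.0 and 13.2 CPM in Nr1d1+/+ and at 4.03 and 3.72 CPM in Nr1d1-/- (log2 fold -1.96, edgeR adjusted p = 0.00379). Zfp599 was at 6.24 and 9.999 CPM in Nr1d1+/+ and at 1.10 and 3.16 CPM in Nr1d1-/- (log2 fold -1.89, SE 0.51, edgeR adjusted p = 0.0215). The call of Zfp599 was lost without Nr1d1+/+ replicate 2 (edgeR adjusted p = 0.136), without Nr1d1-/- replicate 1 (0.0601) and with the trends removed (0.0618), and its log2 fold was -2.89 without Nr1d1-/- replicate 2.

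**Figure D3:**
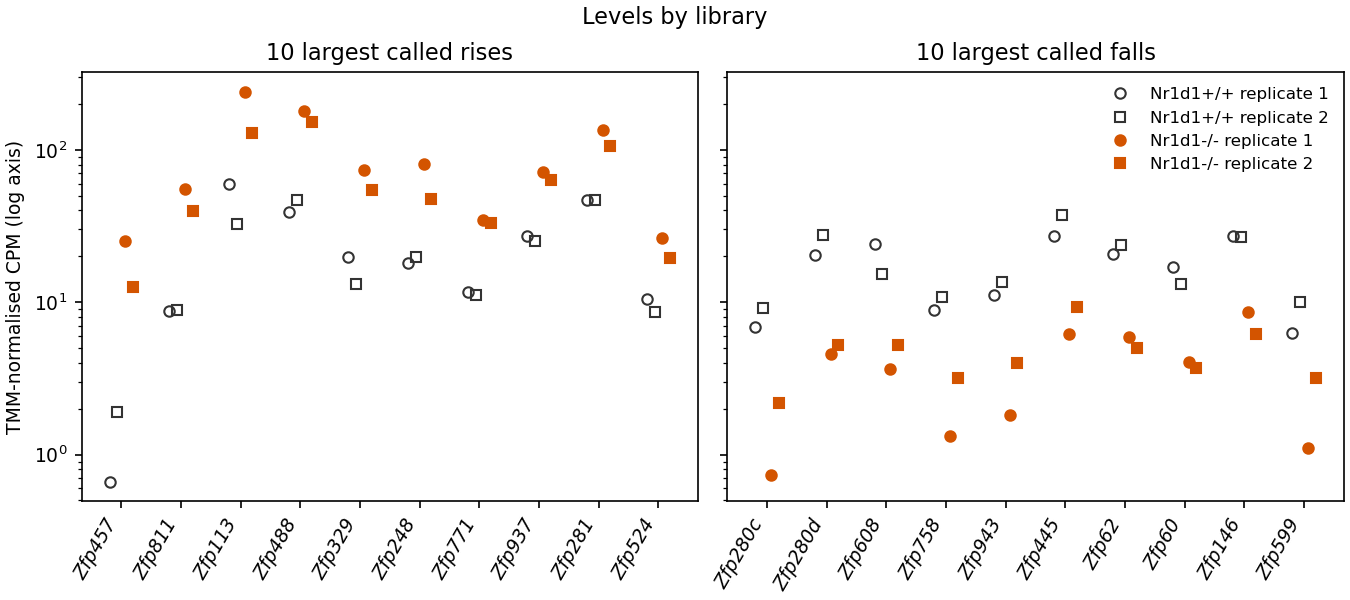
Normalised CPM by library (logarithmic vertical axis) of the 10 Zfp genes with the largest called rise (left) and the 10 with the largest called fall (right); open symbols are Nr1d1+/+ and filled ones Nr1d1-/- libraries, circles replicate 1 and squares replicate 2. Genes were chosen as called and without overlap between genotypes, so the 2 filled points lie on 1 side of the 2 open points by choice. The gap is widest at Zfp457.

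The members were then grouped by what their proteins are known to do. Among proteins directed at RNA, ribosomes or the spindle, 8 of 9 listed genes were members; 2 rose, 3 fell and 3 did not pass, with a median log2 fold of -0.36. For this and each list below, 16.5% of all tested genes were called higher and 17.3% lower, with a median of -0.01; the lists are small. Those that rose were Zfp593 and Zfp622. Zfp593, whose yeast relative Bud20 serves export of the large ribosomal subunit, was at 20.1 and 13.6 CPM in Nr1d1+/+ and at 44.4 and 33.9 CPM in Nr1d1-/- (log2 fold 1.21, SE 0.26, edgeR adjusted p = 0.00999). Zfp622, whose yeast relative Rei1 matures the same subunit, was at 48.0 and 38.7 CPM in Nr1d1+/+ and at 75.9 and 76.3 CPM in Nr1d1-/- (log2 fold 0.81, SE 0.19, edgeR adjusted p = 0.0139). Without Nr1d1+/+ replicate 2 the log2 folds fell to 0.93 for Zfp593 and 0.64 for Zfp622. Zfp593 also fell to 0.82 once GC and length trends were taken out, and then just missed the threshold (edgeR adjusted p = 0.0512).

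The RNA-directed genes that fell were Zfp207, Zfp36 and Zfp106. Zfp207, or BuGZ, which loads the checkpoint protein Bub3 at kinetochores, was at 77.8 and 81.0 CPM in Nr1d1+/+ and at 44.5 and 36.1 CPM in Nr1d1-/- (log2 fold -0.98, SE 0.19, edgeR adjusted p = 0.00703). Zfp106, an RNA-binding protein needed for motor neurons and muscle in mice, was at 110.4 and 139 CPM in Nr1d1+/+ and at 69.8 and 76.0 CPM in Nr1d1-/- (log2 fold -0.78, edgeR adjusted p = 0.0153). The call of Zfp106 was lost with the trends removed (log2 fold -0.39, edgeR adjusted p = 0.156), without Nr1d1+/+ replicate 2 (0.108) and without Nr1d1-/- replicate 1 (0.0513). Zfp598, which marks collided ribosomes, had a log2 fold of 0.21 and Zfp346, which binds double-stranded RNA, one of -0.03, and neither was called.

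Of the genes known from epithelium or breast tumours, 5 of 6 listed were members; 3 fell, 1 rose and 1 did not pass, and the median log2 fold was -0.88 (all tested genes: 17.3% lower, 16.5% higher, median -0.01). Zfp217, whose human counterpart is an oncogene amplified in breast cancer, was at 18.1 and 19.8 CPM in Nr1d1+/+ and at 6.67 and 6.57 CPM in Nr1d1-/- (log2 fold -1.52, SE 0.27, edgeR adjusted p = 0.00494). Zfp750, a driver of epidermal differentiation, was at 50.4 and 45.7 CPM in Nr1d1+/+ and at 23.6 and 21.0 CPM in Nr1d1-/- (log2 fold -1.11, SE 0.21, edgeR adjusted p = 0.00541). In both the replicates of a genotype were close and the genotypes stood apart. Zfp36, or tristetraprolin, which hastens the decay of AU-rich mRNAs and was also in the RNA list, was at 56.9 and 52.0 CPM in Nr1d1+/+ and at 35.1 and 24.2 CPM in Nr1d1-/- (log2 fold -0.88, edgeR adjusted p = 0.0197). It did not pass without Nr1d1+/+ replicate 1 or Nr1d1-/- replicate 2 (edgeR adjusted p = 0.0634 and 0.0658).

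Zfp827, whose human counterpart brings the NuRD complex to telomeres, was the epithelial-list gene that rose, from 38.1 and 27.6 CPM in Nr1d1+/+ to 64.5 and 64.2 CPM in Nr1d1-/- (log2 fold 0.97, edgeR adjusted p = 0.0106; 0.0915 without Nr1d1+/+ replicate 2). Zfp703, whose human counterpart is an oncogene of luminal B breast cancer, was at 12.6 and 18.0 CPM in Nr1d1+/+ and at 10.04 and 7.50 CPM in Nr1d1-/- (log2 fold -0.81, edgeR adjusted p = 0.0756), and passed with the trends removed (-1.17, edgeR adjusted p = 0.0323). The 5 luminal markers moved both ways, with 3 higher and 1 lower and a summed level of 5471, 4639, 9090 and 8469 CPM in the 4 libraries. Their part in these differences was not tested, and in bulk tumour tissue fewer cells of a type cannot be told apart from less RNA per cell.

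Of the genes of mesenchymal and fat cells, 3 of 5 listed were members; 2 fell and 1 did not pass, against 17.3% lower over all tested genes. Zfp516, which drives Ucp1 and brown fat in mice, was at 16.1 and 20.4 CPM in Nr1d1+/+ and at 7.84 and 6.45 CPM in Nr1d1-/- (log2 fold -1.36, SE 0.29, edgeR adjusted p = 0.00912; 0.0672 without Nr1d1+/+ replicate 2). Zfp521, which holds mesenchymal precursors back from the fat lineage in mice, was at 22.8 and 22.6 CPM in Nr1d1+/+ and at 10.6 and 14.3 CPM in Nr1d1-/- (log2 fold -0.86, edgeR adjusted p = 0.0309). The call of Zfp521 was lost with the trends removed (edgeR adjusted p = 0.149) and when Nr1d1+/+ replicate 1, Nr1d1+/+ replicate 2 or Nr1d1-/- replicate 1 was left out (0.1003, 0.118 and 0.109). Zfp467, which favours fat over bone in mice, overlapped between genotypes at a log2 fold of -0.24, and its sign turned without Nr1d1+/+ replicate 1 (0.18) and without Nr1d1-/- replicate 1 (0.04). Of 5 fibroblast markers 1 was called higher, and of 4 tested adipocyte markers 2 were, with a summed adipocyte marker level of 24.7, 45.2, 118 and 88.2 CPM in the same order; their part was not tested.

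All 14 genes listed as partners of chromatin complexes were members, and 9 fell, 1 rose and 4 did not pass, against 17.3% lower and 16.5% higher over all tested genes, with a median log2 fold of -0.83 against -0.01. With the trends removed, 3 fell and 1 rose, against 11.2% and 11% of all tested genes, and the median was -0.63. Those 3 falls were Zfp280c, Zfp280d and Zfp410. Zfp281 was the rise, and Zfp280c and Zfp280d were the largest falls. Of the falls, Zfp280c, Zfp280d and Zfp131 reached the 5 CPM limit through Nr1d1+/+ alone, so their calls do not count in support of a difference. Of the 3 falls with the trends removed, this leaves Zfp410. Zfp451, a SUMO ligase, was at 22.3 and 21.8 CPM in Nr1d1+/+ and at 9.45 and 10.97 CPM in Nr1d1-/- (log2 fold -1.11, edgeR adjusted p = 0.0115; 0.0551 without Nr1d1+/+ replicate 2 and 0.104 with the trends removed). The other falls were Zfp644, a partner of the histone methyltransferases G9a and GLP, Zfp143, Zfp131, Zfp410, which in mouse and human cells activates Chd4, Zfp532 and Zfp148, at log2 folds from -1.21 to -0.71. Their edgeR adjusted p ran from 0.0156 to 0.0305. With the trends removed, only Zfp410 of these passed (edgeR adjusted p = 0.0440, the others from 0.0621 to 0.558), and Zfp148 was at -0.17. Zfp592 and Zfp687, which with Zfp532 form a set of proteins bound to ZMYND8, were at -0.13 and -0.14 and did not pass.

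Of 11 genes listed for silencing of imprinted loci and retroelements, 5 were members; 2 fell (Zfp445 and Zfp932) and 3 did not pass, against 17.3% lower over all tested genes. Zfp932, which represses endogenous retroviruses in mouse embryonic stem cells, was at 15.4 and 12.9 CPM in Nr1d1+/+ and at 5.49 and 8.62 CPM in Nr1d1-/- (log2 fold -0.99, SE 0.32, edgeR adjusted p = 0.0421). It missed the threshold with the trends removed (edgeR adjusted p = 0.172) and when Nr1d1+/+ replicate 1, Nr1d1+/+ replicate 2 or Nr1d1-/- replicate 1 was left out (0.176, 0.0970 and 0.146). Zfp809, which starts silencing of murine leukaemia virus-type elements, was at 6.52 and 5.41 CPM in Nr1d1+/+ and at 5.79 and 6.20 CPM in Nr1d1-/-, a log2 fold of 0.01. Zfp568, which silences a placental Igf2 promoter in mice, was at a log2 fold of -0.89 (edgeR adjusted p = 0.0845), and Zfp459 at 0.87 (0.0952; 1.29 and 0.0370 with the trends removed).

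**Figure D4:**
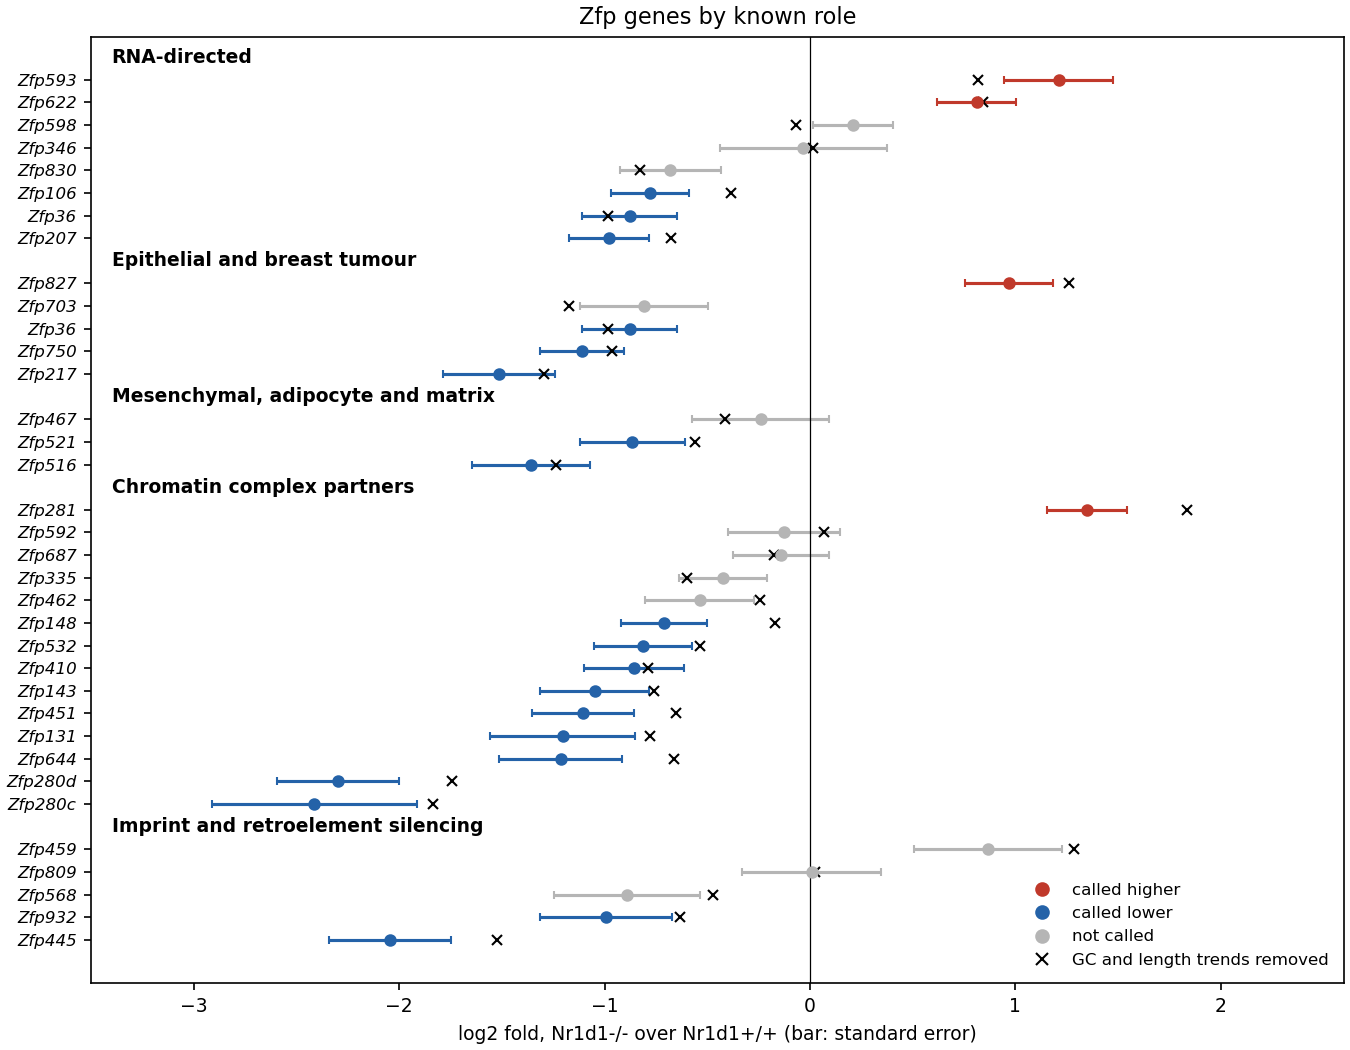
Log2 fold (horizontal axis, Nr1d1-/- over Nr1d1+/+) with its standard error for the Zfp genes of 5 lists of known roles; red and blue dots were called higher and lower by edgeR, grey dots were not, and crosses give the value with GC and length trends removed. Blue dots make up 9 of the 14 chromatin complex partners, and most crosses of the called falls lie nearer to 0 than their dots.

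The machinery that KRAB proteins recruit was read from a list of 25 co-repressor genes, none of them a member. Of these, 12 fell, 1 rose (Ehmt2, which encodes G9a) and 12 did not pass, against 17.3% lower and 16.5% higher over all tested genes, and the median log2 fold was -0.60 against -0.01. With the trends removed 6 fell and none rose, against 11.2% and 11% of all tested genes. Fewer of the list passed without Nr1d1+/+ replicate 2 or without Nr1d1-/- replicate 2. The share of the list called was then below that of all tested genes in the former fit and near it in the latter. Trim28, the adaptor that binds KRAB domains, was at 136 and 126 CPM in Nr1d1+/+ and at 184 and 145 CPM in Nr1d1-/- (log2 fold 0.33, SE 0.19, edgeR adjusted p = 0.205; -0.057 with library size as the only scaling). Setdb1, the histone H3 lysine methyltransferase that TRIM28 brings in, was at 30.1 and 35.5 CPM in Nr1d1+/+ and at 18.1 and 15.3 CPM in Nr1d1-/- (log2 fold -0.98, SE 0.23, edgeR adjusted p = 0.0134). Setdb1 missed the threshold with the trends removed (edgeR adjusted p = 0.0530) and without Nr1d1+/+ replicate 2 (0.0883). Morc3, which silences endogenous retroviruses in mouse cells, was at 20.3 and 27.1 CPM in Nr1d1+/+ and at 4.98 and 8.12 CPM in Nr1d1-/- (log2 fold -1.84, SE 0.32, edgeR adjusted p = 0.00441; -1.40 with the trends removed).

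With the KRAB pattern, 8 of 99 genes were called higher (8.08%, against 16.5% of all tested genes) and 19 lower (19.2%, against 17.3%), and the median log2 fold was -0.42. The share of lower KRAB genes was near that of all genes. Without the pattern, 17 of 116 were called higher (14.7%) and 34 lower (29.3%), and the median was -0.27. Without Nr1d1+/+ replicate 1 or Nr1d1+/+ replicate 2, 12 and 7 KRAB genes were called lower (12.1% and 7.07%, against 11.8% and 7.62% of all tested genes), and without Nr1d1+/+ replicate 2, 4 genes without the pattern were called higher and 11 lower (3.45% and 9.48%, against 6.75% and 7.62%). With the trends removed, the KRAB genes split into 11 higher and 7 lower (11.1% and 7.07%, against 11% and 11.2% of all tested genes), with a median of -0.11. The others split into 11 higher and 21 lower (9.48% and 18.1%), with a median of -0.23. Transcripts of the KRAB genes had a median GC content of 41.7%, against 51.5% for the others. Whether the 2 sets differ from each other was not tested. In both sets, genes called lower include some that reached the 5 CPM limit through Nr1d1+/+ alone. Examples are Zfp60, Zfp758 and Zfp943 with the pattern and Zfp280c, Zfp280d and Zfp608 without it.

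By number of finger patterns, 9 members had none, 44 had 1 to 5, 68 had 6 to 10 and 94 had more than 10. The median log2 folds were -0.70, -0.28, -0.18 and -0.42 in that order. The counts called lower were 4, 11, 20 and 18 (44.4%, 25%, 29.4% and 19.1%, against 17.3% of all tested genes), and those called higher were 1, 10, 7 and 7 (11.1%, 22.7%, 10.3% and 7.45%, against 16.5%). In the largest group, with more than 10 fingers, the lower share was near that of all genes. The genes called lower with 6 to 10 fingers include Zfp280c, Zfp280d and Zfp599, which reached the 5 CPM limit through Nr1d1+/+ alone. Zfp142 held the most fingers, 36, and was at 7.37 and 9.28 CPM in Nr1d1+/+ and at 5.71 and 4.77 CPM in Nr1d1-/- (log2 fold -0.67, edgeR adjusted p = 0.156). Genes with no finger found by the pattern included Zfp36, whose fingers are of another type, Zfp750 and Zfp703.

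By position, the members were spread unevenly, with 53 on chromosome 7 and 27 on chromosome 17. On chromosome 7, 7 were called higher (13.2%, against 28.5% of all 1136 tested genes there) and 9 lower (17.0%, against 7.83%), with a median log2 fold of 0.07 against 0.40. On chromosome 17, 3 were called higher (11.1%, against 19.3% of tested genes there) and 4 lower (14.8%, against 12.9%), with a median of -0.40 against 0.13. None of the 15 members on chromosome 9 and none of the 9 on chromosome 18 was called higher, while 17.0% and 11.8% of all tested genes there were. Of them 6 and 6 were called lower (40% and 66.7%, against 17.5% and 23.0%), with medians of -0.80 and -0.86 against -0.01 and -0.32. Those called lower include Zfp280d and Zfp599 on chromosome 9 and Zfp608 on chromosome 18, which reached the 5 CPM limit through Nr1d1+/+ alone. Such genes were also among those called lower on chromosome 7, such as Zfp60, and on chromosome 17, such as Zfp758 and Zfp943. None of these calls counts in support of a difference. The 3 members on the X chromosome (Zfp280c, Zfp182 and Zfp185) were called lower, as were 19.3% of the 493 tested genes there. All 3 reached the 5 CPM limit through Nr1d1+/+ alone, so these calls do not count in support of a difference.

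The log2 fold followed the base composition of the transcript, in the Zfp genes as in all tested genes. Below 40% GC, 2 of 40 members were called higher (5%, against 10.4% of all 723 tested genes of that content) and 14 lower (35%, against 29.2%), with a median log2 fold of -0.79 against -0.55. Those 14 include Zfp62, Zfp131, Zfp729b, Zfp758, Zfp943, Zfp280c and Zfp280d, which reached the 5 CPM limit through Nr1d1+/+ alone. Their calls do not count in support of a difference. From 40% to 45% the member median was -0.31 (all tested -0.42), and from 45% to 50% it was -0.78 (all tested -0.21). From 50% to 55% it was 0.02 (all tested 0.08), and at 55% or more, 8 of 43 members were called higher (18.6%, all tested 26.2%) and 1 lower (2.33%, all tested 5.81%), with a median of 0.21 (all tested 0.40). Across genes, Spearman's rho of log2 fold with GC content was 0.38 over 215 members and 0.31 over 14650 tested genes; the genes share 4 libraries and are not independent. Between the 2 Nr1d1+/+ libraries the log2 ratio of replicate 2 over replicate 1 also followed GC content over the members, with a rho of -0.24, and between the Nr1d1-/- libraries rho was 0.01. Length went with it: medians were 0.34 for the 17 members under 2000 bases and -0.68 for the 40 of at least 6000 bases, against 0.44 and -0.49 over all tested genes. The part of base composition and length in the differences between genotypes was not tested beyond the values with both trends removed.

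**Figure D5:**
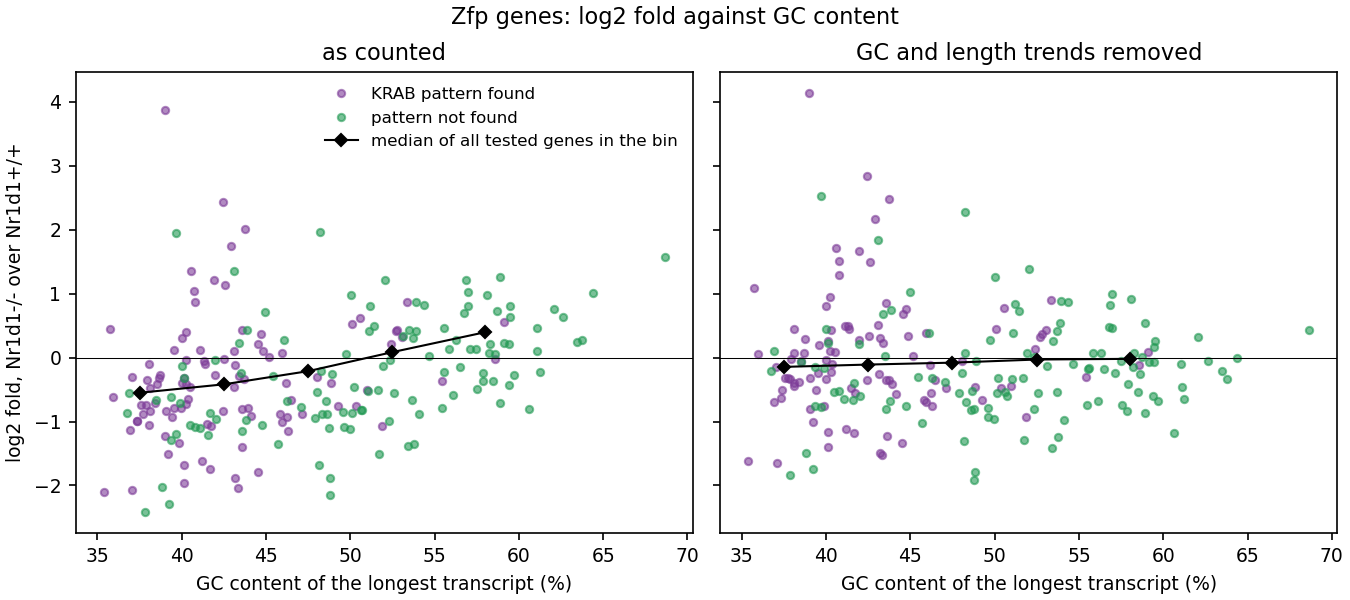
Log2 fold (vertical axis, Nr1d1-/- over Nr1d1+/+) of each Zfp gene against the GC content of its longest transcript in % (horizontal axis), as counted (left) and with GC and length trends removed (right); diamonds are medians of all tested genes in a bin. The diamonds rise from -0.55 to 0.40 on the left and are nearly level on the right, where Zfp457 is still the highest point at 4.13.

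In the bin from 45% to 50% GC, 13 of 33 members were called lower and 1 higher as counted, 39.4% and 3.03% against 21.9% and 11.9% of 3794 tested genes, and 10 lower and 1 higher with the trends removed, 30.3% and 3.03% against 12.5% and 12.2%. Of those 13 lower members, 12 lacked the KRAB pattern, among 21 such genes. The 12 include Zfp608, which reached the 5 CPM limit through Nr1d1+/+ alone, so its call does not count in support of a difference. This bin was singled out after its values were seen.

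REV-ERBα binds the hexamer AGGTCA preceded by an AT-rich stretch, or pairs of that hexamer, and the promoters of the members were searched for such letters. RefSeq promoter windows of 250 bases before to 50 after the gene start (GRCm38.p6) were found for 172 of the 215 members. The letters TAGGTCA occurred on either strand in 6 of them (3.49%), against 802 of 27025 promoters (2.97%). Of the 6, Zfp219 was called higher, Zfp131 and Zfp644 were called lower, and Zfp141, Zfp385c and Zfp740 did not pass. Zfp131 reached the 5 CPM limit through Nr1d1+/+ alone, so its call does not count in support of a difference. A direct repeat of AGGTCA with 2 bases of any kind between the copies was found in 0 of 172 and in 2 of 27025 promoters, and the E-box CACGTG, the site of the clock activators BMAL1 and CLOCK, in 15 of 172 (8.72%) and 8.09% of all promoters. By direction, the E-box was in 6 of 39 promoters of members called lower and 0 of 20 of those called higher. These counts are small and their difference was not tested. Zfp219 was at 51.3 and 41.5 CPM in Nr1d1+/+ and at 80.5 and 77.1 CPM in Nr1d1-/- (log2 fold 0.76, edgeR adjusted p = 0.0169; 0.146 without Nr1d1+/+ replicate 2 and 0.225 with the trends removed). Zfp131 and Zfp644 had log2 folds of -1.20 and -1.21 (edgeR adjusted p = 0.0302 and 0.0156); without Nr1d1+/+ replicate 2 neither passed (0.211 and 0.109), nor with the trends removed (0.137 and 0.122), nor Zfp131 without Nr1d1-/- replicate 2 (0.0913). The match is a description of letters and not of binding.

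The 30-base windows around the match are shown because they hold AGGTCA after a T. A longer AT-rich stretch before it was not part of the search. The windows are given on the strand of the gene, 5′ to 3′, with TAGGTCA or its reverse complement in capitals. They lie at chr13:119790489-119790518 (minus strand) for Zfp131, chr7:42505743-42505772 (minus) for Zfp141, chr14:52019728-52019757 (minus) for Zfp219, chr11:100650764-100650793 (minus) for Zfp385c, chr5:106696839-106696868 (minus) for Zfp644 and chr15:102204421-102204450 (plus) for Zfp740.
Zfp131: caggctccgatTAGGTCAggctcggagttc
Zfp141: acaaccggaagTGACCTAggggcgcacaac
Zfp219: ttattttgcagTAGGTCAcggggtagcggg
Zfp385c: ggggtggtgagTAGGTCAcactctactctc
Zfp644: tccggagtggtTAGGTCAccgctgggggag
Zfp740: gtttcttctacTGACCTAgaaagaaagctc

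In these promoters the capitals begin at bases -49, -8, -33, -89, -27 and -139 relative to the RefSeq gene start, in the order above.

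Some values rest on sequence that is not private to 1 gene. At least 10% of the 50-base words of 31 members occur in another gene, while 143 members share under 1%. An exon of a gene on the opposite strand overlaps 50 members, and an exon of another gene on the same strand overlaps 15; the strand setting of the counting was not given in the sources used here, and the values of those genes are uncertain. At the 5 CPM level, Zfp30, Zfp960 and Zfp715 lay just inside with means of 5.01, 5.06 and 5.06 CPM, and Zfp59, Zfp961 and Zfp948 just outside with 4.97, 4.90 and 4.87 CPM.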

How the data were processed

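RNA was extracted with Trizol and 1.3 ug of total RNA entered Clontech SMARTer Stranded libraries, per the labels' protocols. The submitters' processing notes name TopHat and mm10; versions, the counter, the annotation and the strand setting were not given in the sources used here. The authors deposited raw counts per gene symbol, and no value was normalised before deposit.

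All else was computed here. Of 23282 rows, 22241 were joined to GENCODE M21 (GRCm38, the assembly of mm10) by symbol and 669 by synonym, and 372 were not; all 215 members were joined. Libraries were scaled by TMM (factors 1.107 and 1.176 for Nr1d1+/+, 0.8583 and 0.8951 for Nr1d1-/-) and tested with edgeR 4.0.16 in R 4.3.3 (glmQLFit with legacy=FALSE, filterByExpr with a minimum count of 10, Benjamini-Hochberg adjusted p under 0.05, only genotype in the model, leaving 2 residual degrees of freedom, biological coefficient of variation 0.249). SE is the absolute log2 fold over the square root of F. The trends with GC content and length of the longest transcript were removed as offsets from natural splines with 5 degrees of freedom per library, for 14650 genes. Fits were tested on simulated data.

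C2H2 fingers (C, 2 to 4 residues, C, 12 residues, H, 3 to 5 residues, H) and the KRAB A box (at least 5 of 7 fixed letters within the first 250 residues) were read from translated GENCODE coding sequences, in place of the RefSeq proteins first planned, which were not used here. Promoters came from RefSeq. Levels per kb divide by merged exon length, and the means used for membership and ranking are CPM over total counts.

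The members and lists were chosen with earlier results of these data known. Genes were named by a fixed rule: Nr1d1, Zfp457, the 6 highest levels per kb, up to 10 called members in each direction without overlap, up to 4 members per role list by lowest p, the member with most fingers, 3 members on each side of the level limit, and co-repressors; further list and promoter members were named for completeness. Replicate numbers did not pair the samples (correlation 0.026). Alternatives were other scalings, filters, level limits of 1 and 10 CPM, DESeq2 1.42.0, limma-voom 3.58.1, the older edgeR estimate, a replicate block and leaving out each library. Figures were drawn with matplotlib 3.10.9.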

Additional observations from a re-analysis of the deposited data

How the results depend on the processing

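Called members kept their counts within 1.5 times under DESeq2 size factors, upper quartile scaling, no filter, a filter at a mean of 5 CPM, DESeq2, limma-voom and the older edgeR estimate (23 to 27 higher, 47 to 53 lower). With library size as the only scaling, all tested genes split into 1281 higher and 4415 lower, members into 14 and 98, KRAB members had 43 lower, the others 8 higher and 55 lower, the medians were -0.74 for members, -0.80 with and -0.65 without the KRAB pattern, and 21 co-repressor genes were called. With GC and length trends removed, all tested genes split into 1617 higher and 1639 lower, members had 28 lower, KRAB members 7 lower, the others 11 higher and 21 lower, the medians were -0.18 for members and -0.11 for KRAB members, and 6 co-repressor genes were called. With trends removed and the replicate block, 31 members, 9 with and 22 without the KRAB pattern, were lower, with medians of -0.19 for members and -0.11 for KRAB members. A level limit of 1 CPM put the KRAB median at -0.63, and one of 10 CPM put it at -0.31 with 9 lower.

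Leaving out each library gave 1036 to 2358 genes higher and 1170 to 2401 lower in all, 10 to 27 members higher and 18 to 43 lower, 6 to 8 KRAB members higher and 7 to 17 lower, 4 to 19 others higher and 11 to 27 lower, 1 to 12 co-repressor genes called, and medians from -0.45 to -0.31 for members, -0.51 to -0.38 for KRAB members and -0.40 to -0.22 for the others; Zfp457 ran from 3.25 to 4.79. Signs reversed for Zfp706 (-0.16), Zfp385c (-0.10) and Trim28 (-0.057) with library size only, for Zfp467 without replicate 1 of Nr1d1+/+ (0.18) or of Nr1d1-/- (0.04), over a range of -0.62 to 0.18, and for Nr1d1 without Nr1d1+/+ replicate 1 (0.14). The cause of these moves was not tested. With the lone remaining sample of a genotype, the spread comes from the other genotype.

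The replicate numbers share no stated origin, and samples with the same number hardly deviated together (correlation 0.026). With the number as a replicate block, 26 members were higher and 53 lower, with 25 and 51 of those called before, medians of -0.37, -0.43 with and -0.28 without the KRAB pattern, and Zfp457 at 3.82. Depth limits the low members: Zfp457 rested on 14 counts in Nr1d1+/+ replicate 1, and Zfp280c on 10 in Nr1d1-/- replicate 1.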
